A study of Mus musculus with 7 samples.

Results

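The IL-6 family cytokines and receptors examined here are 10 genes, chosen by name from the 25322 genes of the deposited table of normalized counts. They are 5 ligands (Il6, Lif, Osm, Il11 and Clcf1) and 5 receptor chains (Il6ra, Il6st, Lifr, Osmr and the itch receptor Il31ra). All 10 were listed, and all 10 passed the filter on low values. The study measured bulk RNA-seq in skin cells that expressed the red reporter tdTomato and were sorted from mice at day 36.

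The Zfp750_KO mice (4 libraries) are labelled ZNF750 fl/fl, with Rosa26 +/- in 3 and Rosa26 -/- in 1. The control mice (3 libraries) are labelled ZNF750 wt/fl in 2 and ZNF750 wt/wt in 1, all with Rosa26 +/-. All mice carried 1 copy of a tamoxifen-inducible Cre under Lrig1 (Lrig1-CreERT2 +/-, written Lrig1-CreER in some labels). Lrig1 marks stem cells of the hair follicle junctional zone, so recombination depends on that promoter. All pups received 4-hydroxytamoxifen from day 4 to 7 or from day 5 to 8, and the labels do not say which pups had which course. Zfp750 encodes a transcription factor of epidermal differentiation (ZNF750 in human). Libraries carry the short names of the table's columns, and per-library values are listed as 1M, 2M, 3F, 6F for Zfp750_KO and as 4F, 4M, 7F for control. Because no label ties a library to a single animal, the p-values here speak only of variation among libraries, which may be technical.

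Zfp750 itself stood at 10.1 to 48.9 normalized counts in Zfp750_KO and at 51.2 to 335 in control. The libraries held 9.09 to 17.1 M reads. They differed widely in leukocyte RNA within both groups. Ptprc, the leukocyte antigen CD45, was at 538, 517, 13422 and 10251 in the 4 Zfp750_KO libraries, against 58.8, 5652 and 7853 in the 3 controls. Zfp750_KO 1M and 2M and control 4F were thus poor in leukocyte RNA, and the other 4 libraries were rich in it. Summed fibroblast markers (14 of 14 listed) ranged from 201725 to 1600742 in Zfp750_KO and from 1013105 to 2386712 in control, whereas summed keratinocyte markers (13 of 13 listed) ranged from 4074 to 37529 in Zfp750_KO and from 4337 to 40054 in control. Fibroblast markers were thus present in every library of cells labelled through Lrig1, and Krt1 of the keratinocyte list was at 0 in at least 1 library. Which cell types carried the label was not tested. Xist, the RNA of the inactive X chromosome, was at 3318 in control 4M but at 0.966 and 6.24 in the other male-named libraries, although control 4M also held the Y-linked Ddx3y (810). In such bulk libraries fewer cells of a type and less RNA per cell cannot be told apart.

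Cytokines of this family signal through receptor pairs that share IL6ST, a chain that activates JAK kinases and the transcription factor STAT3. IL-6 and IL-11 first bind their own receptor chains, LIF pairs IL6ST with LIFR, and mouse OSM pairs it mainly with OSMR. IL-31, a cytokine of itch, uses IL31RA together with OSMR and without IL6ST. In skin these cytokines are known for keratinocyte activation, wound repair, fibroblast responses and itch.

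Osm, the gene of oncostatin M, a cytokine made mainly by activated myeloid and T cells, was the ligand that differed most. Osm (ENSMUSG00000058755, chromosome 11) stood at 167, 97.6, 1218 and 1077 normalized counts in the 4 Zfp750_KO libraries, against 1.55, 125 and 186 in the 3 controls. These values rest on 161, 101, 1081 and 1564 reads in Zfp750_KO and on 2, 95 and 165 reads in control. The groups overlapped, and Zfp750_KO 1M and 2M lay near control 4M and 7F at far lower levels of Ptprc. Within the leukocyte-rich libraries Osm in Zfp750_KO was 7.40 times as high as in control, and within the leukocyte-poor ones both Zfp750_KO libraries exceeded control 4F, which held only 2 reads.

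**Figure D1:**
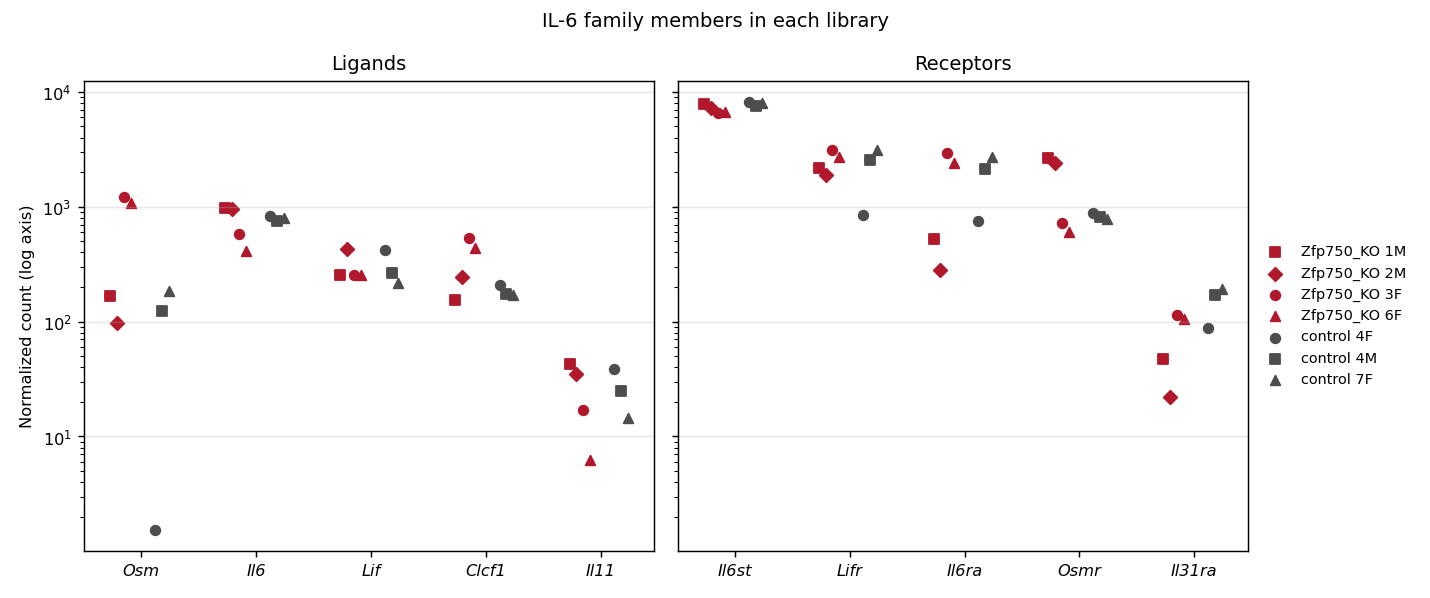
Normalized counts (log axis) of the 5 ligands and the 5 receptor chains in each library, Zfp750_KO left of control for each gene. Osm runs from 1.55 in control 4F to 1218 in Zfp750_KO 3F, whereas Il6st lies between 6528 and 8090 in every library.

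Differences were tested with limma on log2(value + 11.9), across all 18141 genes that passed the filter, first with the group as the only term. In that fit 0 of the 10 members passed an adjusted p of 0.05, and so did 0 of all genes tested (0%). Without adjustment, 0 members and 1058 genes (5.83%) had p under 0.05. Osm differed by 2.50 ± 1.21 (SE) there, with an adjusted p of 0.93. A second limma fit held the macrophage score, the mean log2 level of 22 macrophage genes, as a covariate. The score was 7.19, 6.85, 11.03 and 10.74 in the 4 Zfp750_KO libraries, against 5.76, 10.04 and 10.25 in the 3 controls. In it 2 members passed, Osm upwards and Il31ra downwards, against a background of 3.43% of all genes (1.3% higher and 2.13% lower). At an unadjusted p under 0.05 the counts were 3 of 10 members and 17.3% of all genes. No member separated the groups without overlap in its normalized counts, as 7.1% of all genes did (3.19% higher and 3.91% lower). A group by sex term passed for 0 members and for 0.0165% of all genes.

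Osm rose in the fit with the macrophage score, by 2.28 ± 0.19 (SE) on the log2 scale (limma, adjusted p = 0.00214). Leaving out any 1 of the 7 libraries kept the call, with adjusted p-values of 0.000104 to 0.0304 in limma. In the 4 leukocyte-rich libraries alone, Zfp750_KO 3F and 6F against control 4M and 7F, the limma difference was 2.82 ± 0.22 (SE, adjusted p = 5.31e-05). That fit held no cell type covariate, and both Zfp750_KO libraries in it held more Ptprc than either control. It rests on 2 libraries per group, so its SE and p lean on the variance that limma shares across genes. Osm and Clcf1 were the 2 members called there, both higher, against 12.2% of 17214 genes (5.14% higher and 7.02% lower). The call depended on which cell type stood in the model. With the mean of 8 T cell genes in place of the macrophage score the difference was 0.70 (limma, adjusted p = 0.185), and with the fibroblast mean it was 1.34 (adjusted p = 0.373).

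Markers of other cells that can make oncostatin M were also uneven. The summed T cell list (8 of 8 listed) ranged from 359 to 2426 in Zfp750_KO and from 60.1 to 821 in control, none of its genes separated the groups, and Cd3d was at 0 in at least 1 library. The summed neutrophil list (5 of 7 listed) ranged from 81.1 to 981 in Zfp750_KO and from 3.87 to 155 in control. Of its 5 genes, S100a8, S100a9 and Mmp8 were higher in every Zfp750_KO library than in any control, against 3.19% of all genes tested. Csf3r and Cxcr2 overlapped. S100a9 was below the filter, and S100a8 stood at only 1.31 to 49.9 normalized counts. S100a9, Cxcr2 and Mmp8 were each at 0 in at least 1 library. The part of neutrophils in the Osm result was not tested.

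Set against leukocyte RNA, Osm separated the groups. It amounted to 31.1%, 18.9%, 9.08% and 10.5% of Ptprc in the 4 Zfp750_KO libraries, against 2.63%, 2.21% and 2.36% in the 3 controls. Every Zfp750_KO library lay above the 3 controls, and the mean log2 ratio differed by 2.68. The value of control 4F rests on 2 Osm reads and 76 Ptprc reads, with an exact binomial 95% interval of 0.313% to 9.84% for counting error only, which reaches past the value of Zfp750_KO 3F. For control 4M and 7F these intervals were 1.78% to 2.70% and 2.01% to 2.76%, and the lowest bound in Zfp750_KO was 8.52%. Osm was the 1 of 10 members whose ratio to Ptprc was higher without overlap, against 0.386% of all genes tested, and no member was lower, against 0.601%. Relative to the 22 summed macrophage genes Osm stood at 1.02% to 1.87% in Zfp750_KO and at 0.0558% to 0.261% in control. Relative to the summed neutrophil genes the groups overlapped, at 101% to 215% in Zfp750_KO and up to 120% in control. These ratios were chosen after seeing the data, so no test is given for them.

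**Figure D2:**
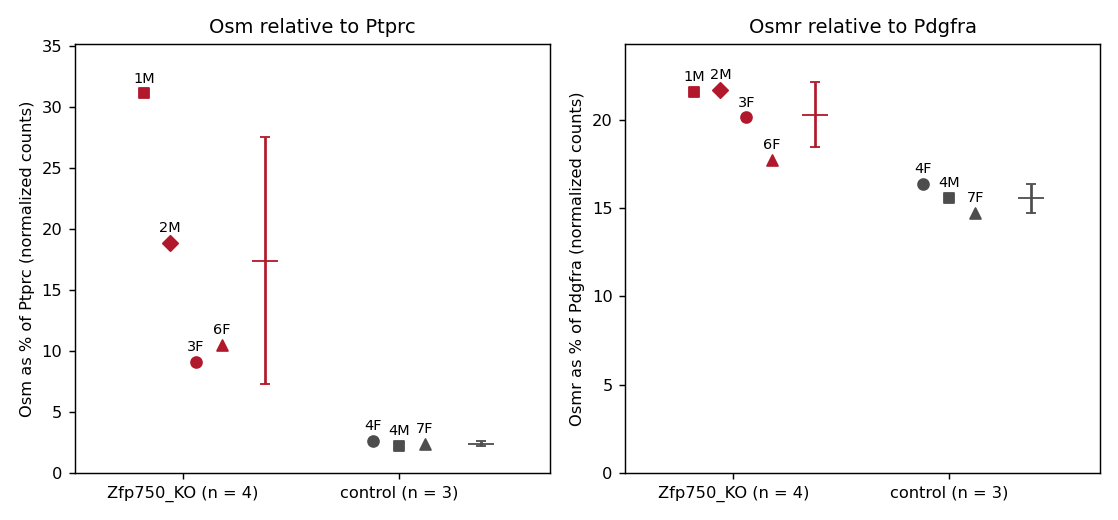
Osm as a percentage of Ptprc and Osmr as a percentage of Pdgfra, both from normalized counts, in Zfp750_KO (n = 4) and control (n = 3). Points are libraries, bars show the mean and SD, and every Zfp750_KO library lies above every control in both panels.

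Clcf1 (ENSMUSG00000040663, chromosome 19), the gene of a ligand of the ciliary neurotrophic factor receptor, was higher in the leukocyte-rich Zfp750_KO libraries than in every control. Its difference between the groups passed only in part of the settings. Clcf1 stood at 155, 246, 539 and 440 in the 4 Zfp750_KO libraries, against 210, 175 and 169 in the 3 controls. Zfp750_KO 3F and 6F lay above every control, whereas 1M lay below all 3 and 2M just above them. The difference between the groups was 0.68 ± 0.32 (SE) with the macrophage score and did not pass (limma, adjusted p = 0.331). It was 1.02 with array weights and 1.19 without control 4F, where it passed (limma, adjusted p of 0.0434 and 0.00686), and 1.44 ± 0.21 (SE) in the 4 leukocyte-rich libraries (limma, adjusted p = 0.00153).

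Il6 (ENSMUSG00000025746, chromosome 5), the founding cytokine of the family, was even in controls and uneven in Zfp750_KO. Its values were 983, 948, 578 and 408 in the 4 Zfp750_KO libraries, against 835, 758 and 805 in the 3 controls. Zfp750_KO 1M and 2M lay above all controls and 3F and 6F below them. The means were 729 ± 282 (SD, n = 4) in Zfp750_KO and 799 ± 39.3 (SD, n = 3) in control, and the difference with the macrophage score was -0.18 ± 0.22 (SE; limma, adjusted p = 0.757). In the 4 leukocyte-rich libraries it was -0.67 ± 0.21 (limma, adjusted p = 0.0535), just outside the threshold.

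Il11 (ENSMUSG00000004371, chromosome 7), a cytokine of stromal cells, was the lowest of the ligands, with 9 to 50 reads per library. It stood at 42.6, 34.8, 16.9 and 6.20 in the 4 Zfp750_KO libraries, against 38.7, 24.9 and 14.6 in the 3 controls. In both groups the leukocyte-poor libraries were the higher ones, and the groups overlapped throughout. Lif (ENSMUSG00000034394, chromosome 11), the gene of leukemia inhibitory factor, had 257, 431, 255 and 256 in the 4 Zfp750_KO libraries, against 421, 264 and 215 in the 3 controls. Its means were 300 ± 87.4 (SD, n = 4) in Zfp750_KO and 300 ± 108 (SD, n = 3) in control. The differences with the macrophage score were -0.05 ± 0.27 (SE) for Il11 and 0.05 ± 0.20 for Lif, with limma adjusted p-values of 0.957 and 0.934.

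Il6 and Il11 had the profiles most alike among the members, with a root mean square difference of 0.26 log2 units between their centred profiles over the 7 libraries. Their own SDs were only 0.41 for Il6 and 0.54 for Il11. Genes outside the family lay closer, Fer at 0.071 from Il6 and Carmil1 at 0.081 from Il11. The promoters of Il6 and Il11 are shown as those of the closest pair of members. The windows run from 250 bases before to 50 after the start, from RefSeq (GRCm38.p6, with Il6 at chr5:30012864-30013163, plus strand, and Il11 at chr7:4778092-4778391, minus strand). Capitals mark matches to AP-1 (TGANTCA) and NF-kB (GGG, any 2 bases, then TTTCC), searched on both strands together with STAT (TTCNNNGAA).
Il6: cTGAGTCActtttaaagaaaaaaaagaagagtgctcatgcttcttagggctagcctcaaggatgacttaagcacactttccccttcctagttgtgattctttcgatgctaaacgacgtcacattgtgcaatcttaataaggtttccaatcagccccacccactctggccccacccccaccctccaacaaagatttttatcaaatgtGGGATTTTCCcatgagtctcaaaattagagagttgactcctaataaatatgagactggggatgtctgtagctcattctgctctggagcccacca
Il11: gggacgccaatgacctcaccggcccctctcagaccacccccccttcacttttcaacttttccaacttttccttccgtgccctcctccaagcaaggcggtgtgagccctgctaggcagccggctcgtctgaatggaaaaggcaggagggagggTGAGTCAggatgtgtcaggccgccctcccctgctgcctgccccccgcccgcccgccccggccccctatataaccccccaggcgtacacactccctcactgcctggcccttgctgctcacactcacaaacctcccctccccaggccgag
Il6 holds TGAGTCA at the far end of the window and GGGATTTTCC 44 bases before the start, and Il11 holds TGAGTCA 98 bases before it. The motifs do not overlap one another in these windows. Of 32851 promoters of this length, 7.81% hold the AP-1 letters, 1.63% the NF-kB letters and 8.3% the STAT letters. Promoters were found for 8 members, in 10 windows, and not for Osm and Clcf1. AP-1 letters stood in those of Lif, Osmr, Il6 and Il11. A match is a description of these letters only.

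Il6st (ENSMUSG00000021756, chromosome 13), the shared signalling chain, was the most even member. It stood at 7776, 7170, 6528 and 6615 normalized counts in the 4 Zfp750_KO libraries, against 8090, 7587 and 8037 in the 3 controls. Zfp750_KO 1M lay above control 4M, and the other 3 Zfp750_KO libraries lay below every control. The means were 7022 ± 577 (SD, n = 4) in Zfp750_KO and 7905 ± 277 (SD, n = 3) in control, with a difference of -0.17 ± 0.16 (SE) with the macrophage score (limma, adjusted p = 0.673).

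Lifr (ENSMUSG00000054263, chromosome 15), the receptor chain for LIF, was at 2154, 1874, 3138 and 2687 in the 4 Zfp750_KO libraries, against 845, 2526 and 3091 in the 3 controls. Control 4F alone lay below the rest. With the macrophage score the difference was 0.29 ± 0.22 (SE; limma, adjusted p = 0.569). Il6ra (ENSMUSG00000027947, chromosome 3), the IL-6 receptor chain, which many leukocytes carry, was higher in every leukocyte-rich library than in any leukocyte-poor one, as was Lifr. It had 526, 278, 2944 and 2393 in the 4 Zfp750_KO libraries, against 747, 2112 and 2685 in the 3 controls. The leukocyte-rich libraries of both groups were at 2112 to 2944, and among the leukocyte-poor ones both Zfp750_KO libraries lay below control 4F. The difference with the macrophage score was -0.82 ± 0.29 (SE) and did not pass (limma, adjusted p = 0.176). With the T cell mean as the covariate it was -1.94 and passed (limma, adjusted p = 0.00857).

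Osmr (ENSMUSG00000022146, chromosome 15), the receptor chain for oncostatin M, was flat in controls and high in the leukocyte-poor Zfp750_KO libraries. Its values were 2645, 2415, 726 and 598 in the 4 Zfp750_KO libraries, against 874, 817 and 785 in the 3 controls. Zfp750_KO 1M and 2M lay far above every control and 3F and 6F below every control. Pdgfra and the summed mural list were highest in Zfp750_KO 1M and 2M, whereas the summed fibroblast list was not. The fibroblast list was at 1475060, 1600742, 201725 and 543045 in the 4 Zfp750_KO libraries, against 2386712, 1823698 and 1013105 in the 3 controls. Of its 14 genes, Mfap5, Pi16 and Fap were lower in every Zfp750_KO library than in any control, and 0 were higher. Over all genes tested, 3.91% were lower and 3.19% higher in this way. The fibroblast sum is weighted towards its most abundant genes. Col1a1 alone was at 536011, 561715, 59036 and 243782 in the 4 Zfp750_KO libraries, against 1.07e+06, 869507 and 430041 in the 3 controls. The share of fibroblasts in each library was not tested. Pdgfra, a receptor of fibroblasts, was at 12246, 11133, 3603 and 3373 in the 4 Zfp750_KO libraries, against 5341, 5237 and 5334 in the 3 controls. The summed mural list (4 of 4 listed, none at 0) was at 7886, 8634, 2078 and 2804 in the 4 Zfp750_KO libraries, against 4399, 1046 and 1054 in the 3 controls. Of its genes, Rgs5 was higher in every Zfp750_KO library than in any control, and the part of mural cells in the Osmr pattern was not tested. Among leukocyte-poor libraries Osmr in Zfp750_KO was 2.89 times as high as in the 1 control, and among leukocyte-rich ones 0.827 times as high. The difference with the macrophage score, 0.72 ± 0.34 (SE), did not pass (limma, adjusted p = 0.334) and does not describe the 4 Zfp750_KO libraries alike. It was 0.10 without control 4F. With the fibroblast mean as the covariate Osmr differed by 1.26 (limma, adjusted p = 0.0114), and with the T cell mean by 1.28 (adjusted p = 0.0542).

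Relative to Pdgfra, Osmr separated the groups by a small margin. It stood at 21.6%, 21.7%, 20.1% and 17.7% of Pdgfra in the 4 Zfp750_KO libraries, against 16.4%, 15.6% and 14.7% in the 3 controls. The mean log2 ratio differed by 0.38. Osmr was the 1 of 10 members higher without overlap in this ratio, against 0.755% of all genes tested, and 0 members were lower, against 4.13%. This ratio was also chosen after seeing the data and is given without a test.

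Il31ra (ENSMUSG00000050377, chromosome 13), the chain that binds IL-31 together with OSMR, was lower on average in Zfp750_KO, and passed once the macrophage score was in the model. It stood at 46.8, 22.2, 114 and 105 in the 4 Zfp750_KO libraries, against 88.3, 172 and 191 in the 3 controls, from 23 to 170 reads. Zfp750_KO 1M and 2M lay below control 4F, and 3F and 6F lay below control 4M and 7F, although they were above control 4F. The mean was 71.9 ± 44.5 (SD, n = 4) in Zfp750_KO and 150 ± 54.7 (SD, n = 3) in control. With the group alone Il31ra differed by -1.08 ± 0.52 (SE) on the log2 scale and did not pass (limma, adjusted p = 0.929). It fell by 1.16 ± 0.24 (SE) with the macrophage score (limma, adjusted p = 0.0351). This call was weak: of the 7 limma fits without 1 library only that without control 4F kept it (adjusted p = 0.0446), and the others ran up to 0.13. With Ptprc as the covariate the limma adjusted p was 0.0693. The call held with the T cell mean, at -1.75 (limma, adjusted p = 0.00683), and with the fibroblast mean, at -1.58 (adjusted p = 0.0365).

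**Figure D3:**
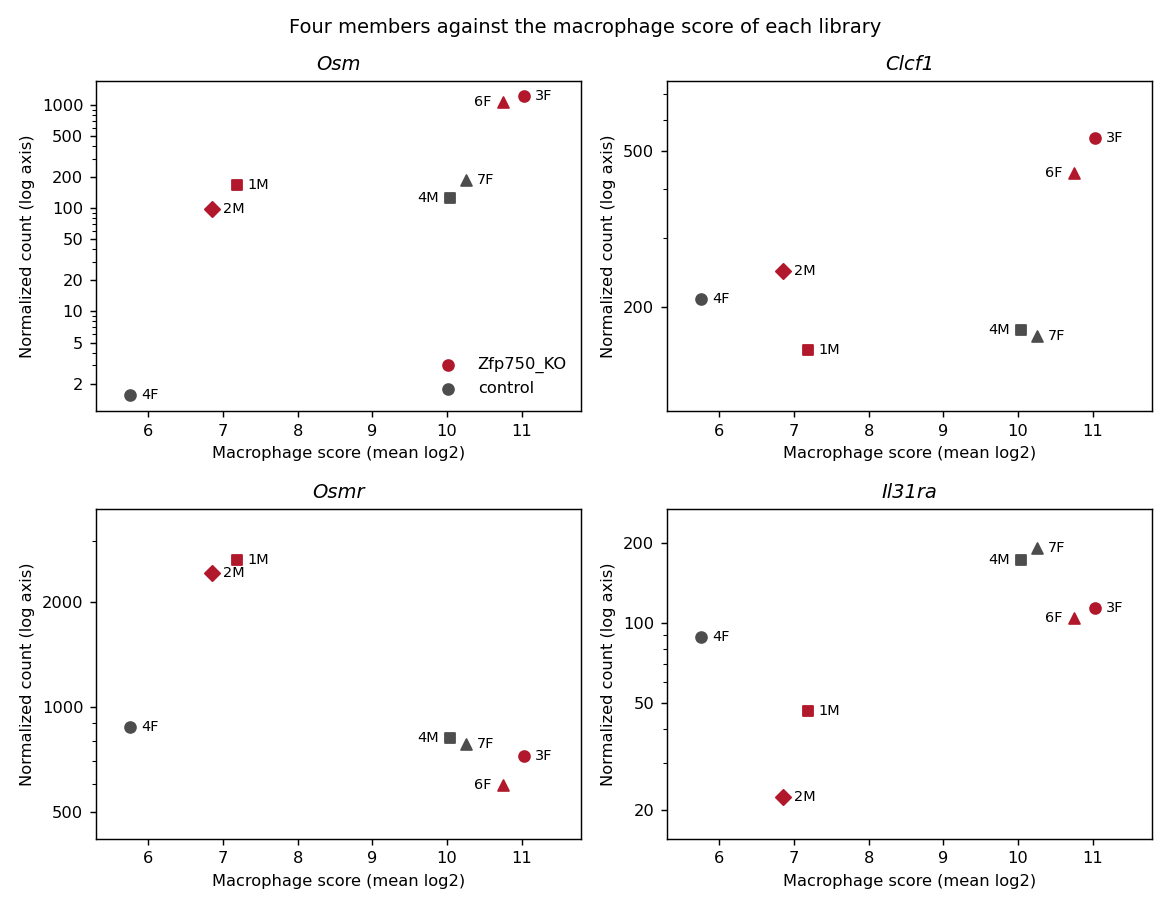
Normalized counts (log axis) of Osm, Clcf1, Osmr and Il31ra against the macrophage score of each library, Zfp750_KO in red and control in grey. Osm lies higher and Il31ra lower in Zfp750_KO than in the controls nearest in score, whose scores are somewhat lower, whereas Osmr is high in Zfp750_KO 1M and 2M only.

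Osmr and Il31ra encode the chains of 1 receptor but did not move together. Il31ra amounted to 1.77%, 0.920%, 15.7% and 17.5% of Osmr in the 4 Zfp750_KO libraries, against 10.1%, 21.1% and 24.4% in the 3 controls. The leukocyte-poor Zfp750_KO libraries held the least Il31ra per Osmr, and the groups overlapped through control 4F. Their promoters are shown to compare these partners (RefSeq, GRCm38.p6, minus strand, Osmr at chr15:6874264-6874563 and Il31ra at chr13:112580613-112580912), with AP-1 and STAT letters in capitals.
Osmr: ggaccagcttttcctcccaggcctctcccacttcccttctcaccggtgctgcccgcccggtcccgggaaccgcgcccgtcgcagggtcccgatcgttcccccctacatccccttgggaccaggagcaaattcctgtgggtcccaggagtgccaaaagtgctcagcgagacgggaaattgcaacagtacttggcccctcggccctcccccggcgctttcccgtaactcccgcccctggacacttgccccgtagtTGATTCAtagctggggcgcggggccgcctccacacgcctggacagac
Il31ra: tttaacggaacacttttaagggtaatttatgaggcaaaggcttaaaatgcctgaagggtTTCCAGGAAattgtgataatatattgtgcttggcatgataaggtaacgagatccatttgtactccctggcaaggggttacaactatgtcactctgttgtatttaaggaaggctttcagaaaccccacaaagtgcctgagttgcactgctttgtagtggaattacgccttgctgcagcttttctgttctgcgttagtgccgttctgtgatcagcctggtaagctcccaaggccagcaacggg
Osmr holds TGATTCA just after its start, and Il31ra holds the STAT letters TTCCAGGAA 191 bases before its start. Of the 8 members with a promoter entry, Il31ra alone held the STAT letters.

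Of the 10 genes, 6 lie as neighbours in the deposited table with no other listed coding gene between them. Osm and Lif lie 16.5 kb apart on chromosome 11 on the same strand, Il6st and Il31ra 9.81 kb apart on chromosome 13 on opposite strands, and Osmr and Lifr 216 kb apart on chromosome 15 on opposite strands. The neighbours did not share their patterns. Osm rose where Lif did not pass, and Il31ra fell beside an even Il6st. Osmr was high in Zfp750_KO 1M and 2M, where Lifr was lower than in 3F and 6F.

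**Figure D4:**
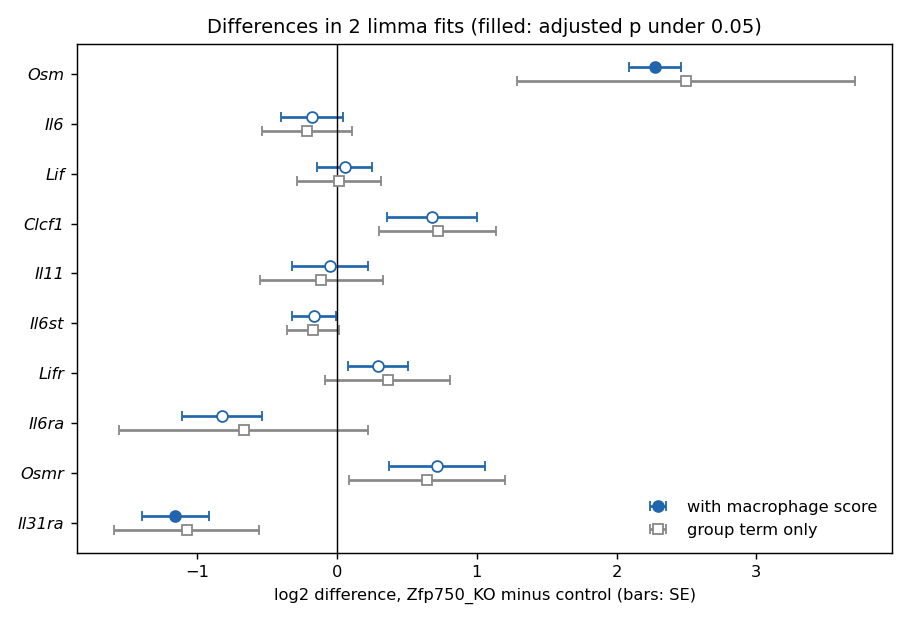
Log2 differences of the 10 members, Zfp750_KO minus control, in the limma fit with the macrophage score and in that with the group alone, with SE bars. Filled symbols mark an adjusted p under 0.05, which Osm (2.28) and Il31ra (-1.16) reached with the score and none reached without it.

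Levels were compared between genes as normalized counts per kb of exon (GENCODE M21 lengths). In Zfp750_KO the order was Il6st, Il6, Osm, Lifr, Il6ra, Osmr, Clcf1, Lif, Il31ra and Il11. In controls it was Il6st, Il6, Il6ra, Lifr, Lif, Osmr, Clcf1, Osm, Il31ra and Il11. Il6st led with 633 ± 52.0 per kb (SD, n = 4) in Zfp750_KO and 712 ± 24.9 (SD, n = 3) in control. Osm averaged 282 ± 260 per kb in Zfp750_KO and 45.8 ± 41.3 in control, its place by mean moving past Il6ra, Lifr, Lif, Osmr and Clcf1. That move rests on Zfp750_KO 3F and 6F, at 536 and 474 per kb. Zfp750_KO 1M and 2M were at 73.7 and 42.9, near control 4M and 7F at 54.9 and 81.7. Most neighbours in these orders overlapped. The steps without overlap were Il6st above Il6 and Lif above Il31ra in Zfp750_KO, and Il6st above Il6, Il6 above Il6ra and Osmr above Clcf1 in control.

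Outside the family, the profile over the 7 libraries closest to that of Osm was Ctla4, an inhibitory receptor of T cells. The root mean square difference was 0.30 log2 units, beside an SD of 2.04 for Osm itself. Il2ra, a chain of the interleukin-2 receptor on activated T cells, followed at 0.49. The closest to Osmr were Gask1b (0.15) and Gnb4 (0.16), to Il31ra Fzd4 (0.15), a Wnt receptor, and Syp (0.20), and to Il6ra Iqgap2 and Emilin2 (0.19 each). These likenesses are descriptions over 7 libraries that share large differences in cell makeup.

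The kinases, STAT factors and inhibitors that act below these receptors were measured in a list of their own. Of 19 genes in the signalling list, all tested, 0 passed in either fit, and their median difference with the macrophage score was 0.08, against 0.02 over all genes tested. Without adjustment, 6 of the 19 had a limma p under 0.05 with the score, against 17.3% of all genes. With the group alone 0 did, against 5.83%. Socs3, the feedback inhibitor of this pathway, averaged 11914 ± 3607 (SD, n = 4) in Zfp750_KO and 10330 ± 598 (SD, n = 3) in control, with a difference of 0.17 ± 0.25 (SE; limma, adjusted p = 0.806). Stat3 averaged 5249 ± 489 in Zfp750_KO and 4715 ± 638 in control, with a difference of 0.14 ± 0.14 (limma, adjusted p = 0.699). Socs3 stood highest in Zfp750_KO 1M (16975), and without that library its difference was -0.05.

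Among 29 genes known as targets of STAT3, 26 could be tested and 5 rose with the macrophage score, while 0 fell and 21 did not pass. Over all genes tested in that fit, 1.3% were called higher and 2.13% lower. At an unadjusted p under 0.05 there were 11 of the 26, against 17.3% of all genes. With the group alone 0 passed. The median difference of the list was 0.31 with the score, against 0.02 over all genes tested. Timp1, which blocks matrix metalloproteinases, rose by 2.34 ± 0.39 (SE; limma, adjusted p = 0.015). Its values were 257, 291, 54.1 and 51.0 in the 4 Zfp750_KO libraries, against 19.4, 15.8 and 14.6 in the 3 controls, without overlap. Lcn2, a siderophore-binding protein of inflamed epithelia, rose by 2.11 ± 0.40 (adjusted p = 0.0242), and Saa3, an acute phase protein, by 1.89 ± 0.42 (adjusted p = 0.0442). Saa3 was listed at 0 in control 4M, so its fitted difference depends on the pseudocount. Lcn2 was low too, at 204, 63.8, 33.8 and 35.8 in the 4 Zfp750_KO libraries, against 11.6, 7.88 and 2.25 in the 3 controls. With a pseudocount of 5 per M neither passed, at 0.99 for Lcn2 and 0.74 for Saa3 (limma, adjusted p of 0.0857 and 0.0572). Tgm1, a cross-linking enzyme of the epidermis, rose by 1.19 ± 0.20 (adjusted p = 0.0155). The fifth, Serpina3n, a protease inhibitor named here after its value was seen, rose by 0.83 ± 0.19 (adjusted p = 0.0475). Of the 7 limma fits without 1 library, Timp1 kept its call in 5, Tgm1 in 4, Lcn2 in 3, Saa3 in 2 and Serpina3n in 1, that without control 4F. All 5 lost it when control 4M or control 7F was left out, and adjusted p reached 0.191. Over all 19 alternative settings Serpina3n lost its call in 11. Timp1, Lcn2 and Tgm1 were known to differ from an earlier reading of these data and are no independent evidence.

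Other members of the family were measured in a list of 14 genes, of which 11 were tested and 0 passed in either fit. Ctf2, Il27 and Il31, the ligand of Il31ra, were below the filter. Il11ra1, the IL-11 receptor chain, averaged 1582 ± 510 (SD, n = 4) in Zfp750_KO and 1554 ± 257 (SD, n = 3) in control (limma, adjusted p = 0.992). Lepr, the leptin receptor, a relative of IL6ST, averaged 1088 ± 206 in Zfp750_KO and 814 ± 437 in control. Its difference of 0.55 ± 0.25 (SE) passed only without control 4F, where it was 0.90 (limma, adjusted p = 0.0129).

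Of 16 genes in the itch list, 13 were tested, and 1 rose and 1 fell with the macrophage score, where 1.3% of all genes were called higher and 2.13% lower. Their median difference was 0.37, against 0.02 over all genes tested. F2rl1, a protease-activated receptor, had 1602, 1700, 132 and 140 in the 4 Zfp750_KO libraries, against 397, 81.4 and 119 in the 3 controls. It rose by 1.72 ± 0.36 (SE; limma, adjusted p = 0.038), a call lost in 5 of the 7 fits without 1 library, with values up to 0.154. Hrh1, a histamine receptor, had 22.9, 22.2, 15.8 and 18.6 in the 4 Zfp750_KO libraries, against 53.4, 106 and 112 in the 3 controls, without overlap. It fell by 1.66 ± 0.27 (SE; limma, adjusted p = 0.0132), and the call was lost when control 4M or control 7F was left out (adjusted p of 0.087 and 0.0851).

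**Figure D5:**
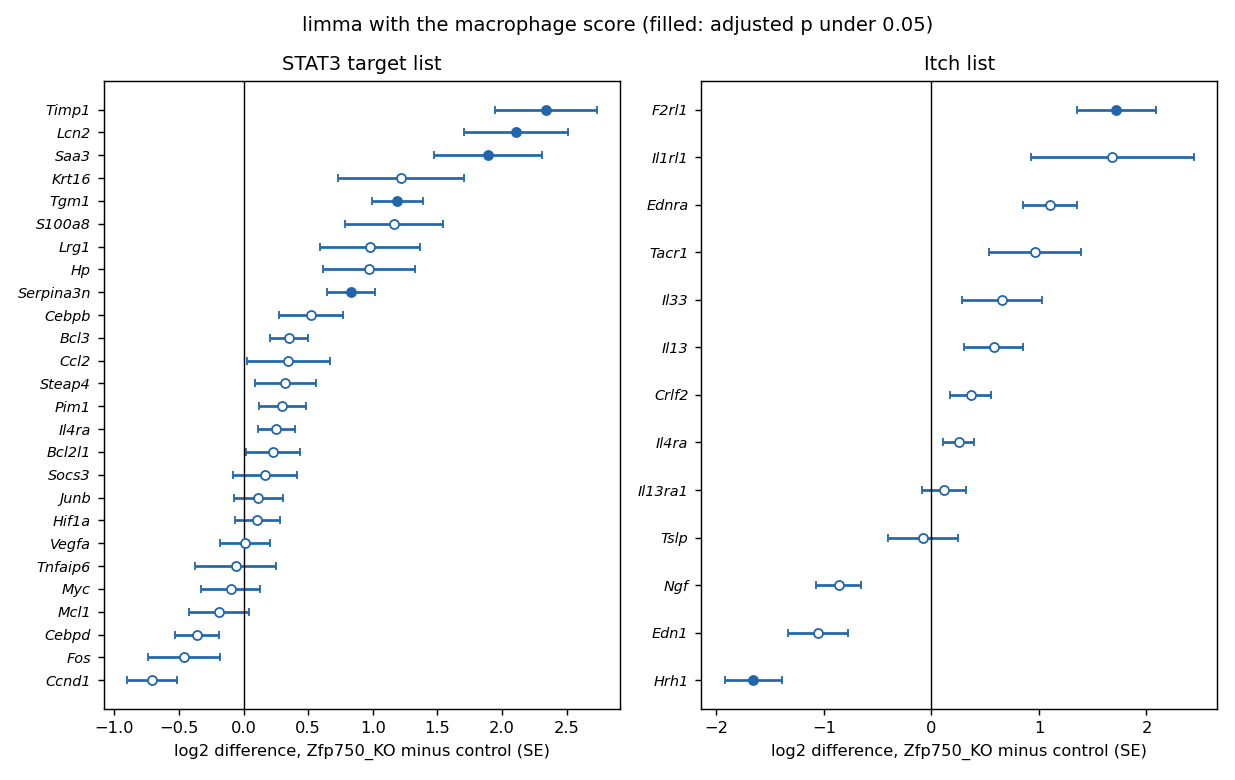
Log2 differences, Zfp750_KO minus control, of the tested STAT3 target genes and itch genes in the limma fit with the macrophage score, with SE bars. Filled points passed an adjusted p of 0.05: Timp1, Lcn2, Saa3, Tgm1 and Serpina3n on the left, F2rl1 (higher) and Hrh1 (lower) on the right.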

How the data were processed

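The deposited file is 1 table of normalized counts per gene, treated here as signal. Per the submitters' processing notes, TopHat2 2.1.0 and Partek 9.0.20.0202 were used. Build and strand setting were not given in the sources used here. For each library the value of 1 read was estimated. At low levels (under 200 reads) 78.0% to 79.6% of values came out whole within 0.02 reads, and the rest were fractional, as for Il6ra and Il6st. Whole reads were therefore not recovered, no count test was run, and read numbers come from these steps. Genes under 10 reads over all libraries are not listed. Columns were assigned to groups by their names, which match no single title, and M and F were read as sex. No pair of libraries looked repeated: 41.4% to 78.8% of genes over 40 summed reads differed beyond counting noise.

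Values were analysed as log2(value + 11.9), a pseudocount of 1 per M of the median column total, which understates changes of low genes. Genes at 1 per M or more in at least 3 libraries were tested with limma 3.58.1 in R 4.3.3 (eBayes with a trend, Benjamini-Hochberg adjustment over all genes, threshold 0.05). The fit with the macrophage score leaves 4 residual degrees of freedom, against 5. Both fits were tested on simulated data. TMM (trimmed mean of M-values) factors, used for scaling only, were computed in R. The members, lists and the second fit were chosen with earlier results of these data known. All members are named. From each list the genes past the threshold are named, up to 4 with the largest difference, or else the 2 with the highest mean. Likeness was measured over centred log2 profiles, without predicted genes. Alternatives covered pseudocounts, filters, scalings, weights, a sex term, left-out libraries and, added after seeing the data, other covariates and ratios. Promoter sequences are from RefSeq on GRCm38.p6, and exon lengths from GENCODE M21, and were used without the table's own coordinates.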

Additional observations from a re-analysis of the deposited data

Results flagged for a closer look

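Lif was flagged because 1 Zfp750_KO library stood far from the other 3. Zfp750_KO 2M was at 431, while 1M, 3F and 6F were at 257, 255 and 256, so the gap took 0.988 of the group's range. Chance flags about 1 in 20 groups, and 10 members were examined.

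Il6 and Osmr were flagged because Zfp750_KO lay above control in male-named libraries and below control in female-named ones. The male arm of control is 1 library, 4M. Its Ddx3y (810) goes with its name, near the 950 and 979 of Zfp750_KO 1M and 2M. Its Xist (3318) lies above these libraries (6.24 and 0.966) and below the female-named ones (23423 to 55719). Neither contrast can therefore be read as one between sexes. Il6 was at 983 and 948 in Zfp750_KO 1M and 2M against 758 in control 4M, and at 578 and 408 in Zfp750_KO 3F and 6F against 835 and 805 in control 4F and 7F. Osmr was at 2645 and 2415 in Zfp750_KO 1M and 2M against 817 in control 4M, and at 726 and 598 in Zfp750_KO 3F and 6F against 874 and 785 in control 4F and 7F. The group by sex term was 1.09 ± 0.36 (SE) for Il6 and 1.94 ± 0.31 for Osmr. Neither passed in limma (adjusted p of 0.14 and 0.118), nor did any other member, and 3 of all genes tested passed (0.0165%). In Zfp750_KO sex and leukocyte RNA cannot be told apart, since both male-named libraries are the leukocyte-poor ones.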

How the results depend on the processing

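Of the 2 calls among the members, that of Osm held in 17 of 19 alternative settings of the second fit and that of Il31ra in 12 of 19. These settings include those with Ptprc, the T cell mean or the fibroblast mean in place of the macrophage score. Osm lost its call with the T cell mean and with the fibroblast mean, and kept it wherever the macrophage score stayed in. Il31ra lost its call with Ptprc and without any 1 library other than control 4F. With the group alone the members past the threshold numbered 3 with array weights (3795 of all genes) and 2 in the 4 leukocyte-rich libraries (2092 of all genes), and 0 in every other setting. In the second fit, 1 member passed with Ptprc in place of the score (413 genes). All genes past the threshold numbered 2875 with the T cell mean in its place, against 622 with the score. With the score they numbered 1240 with a sex term and 1127 with array weights. Without 1 library, 1 to 3 members passed with the score, of 142 (without control 4M) to 1623 genes (without control 4F), and 0 to 2 members did not overlap: Clcf1 and Il6st without Zfp750_KO 1M, Il31ra without control 4F, and Il6st without control 4M. Of all genes tested, 9.45%, 19.9% and 10.1% did not overlap without these libraries in turn. With array weights Osm differed by 0.12 with the group alone and by 2.18 with the score.

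Signs turned only for differences that did not pass. With the group alone Lif was at -0.0060 with TMM factors and -0.0083 with a sex term. With array weights Il6 was at 0.17, Il11 at 0.60 and Lifr at -0.40, and in the 4 leukocyte-rich libraries Il6ra was at 0.16 and Osmr at -0.28. In the second fit Il11 was at 0.017 with Ptprc in place of the score. Il6, Il11 and Lifr were at 0.093, 0.39 and -0.20 under the T cell mean, and Il6 and Il11 at 0.089 and 0.29 under the fibroblast mean. Il11ra1 was at 0.035 with array weights, 0.10 under the T cell mean and 0.050 under the fibroblast mean. Without 1 library the ranges with the group alone were -0.39 to 0.027 for Il6, -0.19 to 0.28 for Lif, -0.35 to 0.19 for Il11 and -0.21 to 0.72 for Lifr. With the score they were -0.061 to 0.23 for Lif, -0.22 to 0.13 for Il11, -0.040 to 0.48 for Lifr, -0.046 to 0.39 for Socs3 and -0.23 to 0.22 for Il11ra1. The cause was not tested. No paired analysis was possible because the columns carry no replicate numbers of the titles. The planned count tests were not run, since whole reads were not recovered. Il11, at 9 to 50 reads per library, is limited by depth.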
